A study of Mus musculus with 2 samples.

Results

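Kinesins are the motor proteins that walk along microtubules, and with their light chains and associated protein they form the group of genes described here. The members were all gene symbols of the deposited transcript tables that begin with Kif and a digit, Kifc, Kifap, or Klc and a digit. The rule found 47 of 23329 genes, and 40 of them had at least 20 counts over both libraries, as did 14649 of all genes. Ratios are given for these 40.

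The study asked, per its title, which mRNAs are enriched at synapses. RNA was taken from whole brain of wild-type C57BL/6 mice as total homogenate (1 library) and as a fraction enriched in synaptosomes (1 library), the nerve endings that pinch off and reseal when brain is homogenised. For the enriched fraction a low-speed spin removed nuclei, a Percoll density gradient separated the rest, and the layer between 3% and 10% Percoll was collected. No treatment is named, both titles carry the tag CT10, and the labels used here give neither the age of the mice nor how many brains went into a library. The synaptosome fraction is an enrichment and can hold other membrane-bound particles of similar density. With 1 library per fraction no value has a replicate, each ratio compares these 2 libraries only, and no p-value is given. In such bulk samples, fewer fragments of a cell type and less RNA in each fragment cannot be told apart.

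A kinesin consists of a motor domain that uses ATP to step along a microtubule, a stalk, and a tail that takes up cargo directly or through an adaptor. In neurons most kinesins move towards the growing end of microtubules, which in axons points to the nerve terminal, and so carry vesicles, mitochondria and RNA granules outward from the cell body. Cytoplasmic dynein moves the other way. Other kinesins build cilia, shorten microtubules or work in the mitotic spindle, and the subfamilies are numbered by the similarity of their motor domains.

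The libraries held 15210838 estimated counts in homogenate and 13709528 in synaptosomes. Levels are given as CPM, counts scaled to an equal library depth with TMM, which sets the typical gene equal in both libraries. A gene is called higher or lower in the synaptosome fraction where it differed by 2-fold or more and the 95% counting interval of its ratio excluded no difference. The labels were checked against marker lists. Markers of neurons, astrocytes, oligodendrocytes and microglia were detected in both libraries and none was at 0. Of 8 neuronal markers, 0 were higher and 4 lower in the synaptosome fraction, with summed CPM of 6581 in homogenate and 5968 in the synaptosome fraction. Of 8 astrocyte markers 7 were higher, with summed CPM of 4981 and 22732. Of 8 oligodendrocyte markers 2 were higher, with summed CPM of 7737 and 23270, of which Mbp had 3217 and 17068. Of 8 microglial markers 4 were higher, with summed CPM of 224 and 444. All 7 endothelial markers and all 5 nuclear noncoding RNAs were lower. What these shifts contribute to the kinesin ratios was not tested.

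The heavy chains of kinesin-1 and most of kinesin-3, which are long-range cargo motors, were higher in the synaptosome fraction, while the light chains Klc1, Klc2 and Klc4 and the 5 kinesin-2 genes were not. Over the 40 members, 16 (40%) were higher, beside 12.6% of all genes tested, and 1 (2.5%) was lower, beside 9.37% of all genes tested. The median log2 ratio of the members was 0.26, and that of all genes tested was -0.02. The counts are also given for abundant genes, by the mean CPM of both libraries, a level that includes the synaptosome value and so is not independent of the ratio. Among 14 members averaging 100 CPM or more, 7 were higher, with a median log2 ratio of 0.81. Of all 2276 genes at that level 28.4% were higher, with a median of 0.47. Scaling by library totals lowered every log2 ratio by 0.49. Then 7 members were higher, beside 4.44% of all genes, and 8 were lower, beside 25.9% of all genes. Those higher were Kif5a, Kif5b, Kif5c, Klc3, Kif1a, Kif1c and Kif4, and those lower were Kif3a, Kifap3, Kif2a, Kif9, Kif20b, Kif22, Kif23 and Kifc5b.

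**Figure D1:**
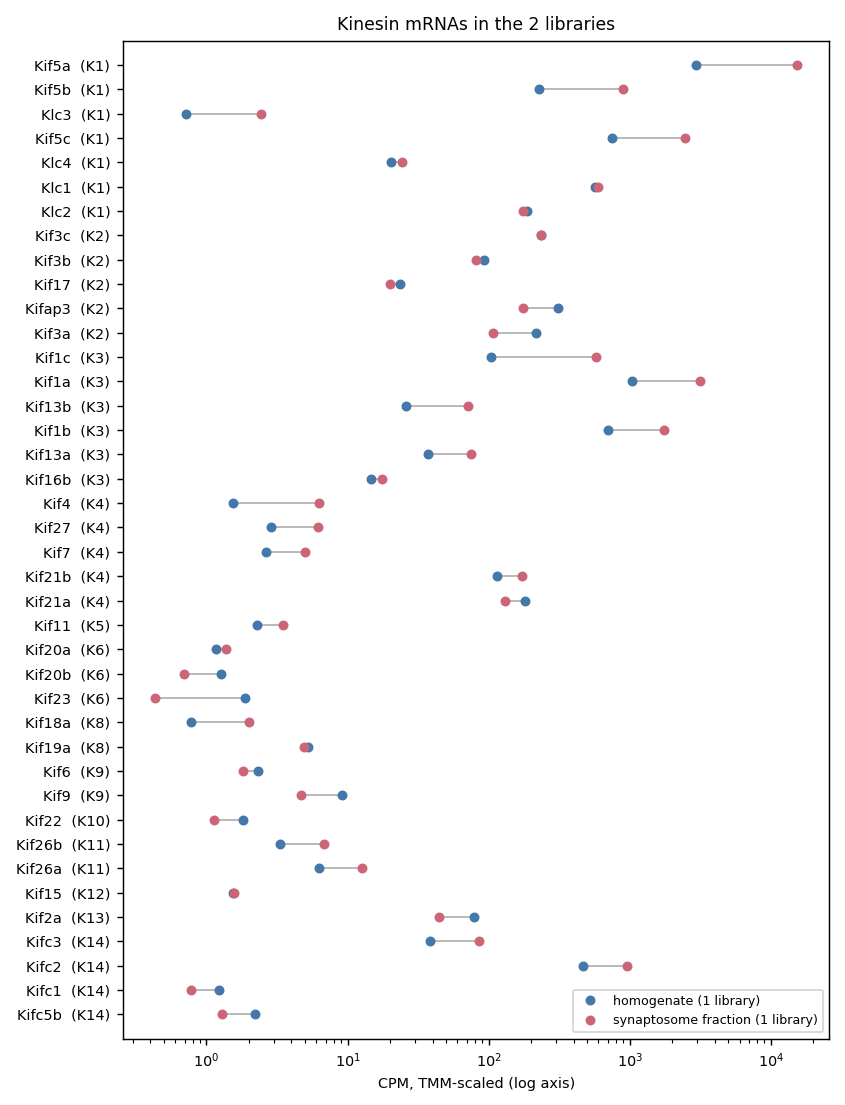
Level of each of the 40 kinesin mRNAs in homogenate (blue) and the synaptosome fraction (red), in TMM-scaled CPM on a log axis, 1 library each, with the subfamily number in parentheses (K1 for kinesin-1). Kif5a is at the right edge in both libraries, at 2941 and 15385 CPM, and most spindle kinesins lie near or below 10 CPM.

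Among kinesin-1 heavy chains, all 3 genes were higher in the synaptosome fraction. Kif5a, the neuronal heavy chain whose human counterpart is mutated in forms of hereditary spastic paraplegia and motor neuron disease, lies on chromosome 10 (mm10, 127225695 to 127263363). It had 53075 counts in homogenate and 177793 in the synaptosome fraction, or 2941 and 15385 CPM. The ratio was 5.23-fold (95% counting interval 5.18 to 5.28). Kif5a alone made up 34.9% of all kinesin counts in homogenate and 56.5% in the synaptosome fraction.

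Kif5b, the heavy chain present in most cell types, had 4112 and 10338 counts, or 228 CPM in homogenate and 895 CPM in the synaptosome fraction. Its ratio was 3.93-fold (3.79 to 4.07). Kif5c, a heavy chain found mainly in neurons (chromosome 2, 49619314 to 49774778), had 13607 and 28248 counts, or 754 and 2444 CPM. Its ratio was 3.24-fold (3.18 to 3.31), so the intervals of the 3 heavy chains did not overlap and Kif5a had the highest ratio of the 3. No stretch of 100 bases is shared between any pair of these 3 genes in the GENCODE transcripts, and none of 25 bases.

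The light chains, which bind the heavy chain tail and hold cargo, were nearly level. Klc1, the main brain light chain (chromosome 12, 111758849 to 111806775), had 10191 counts in homogenate and 6931 in the synaptosome fraction, which were 565 and 600 CPM and a ratio of 1.06-fold (1.03 to 1.10). Klc2, the second neuronal light chain, had 3379 and 2017 counts, or 187 and 175 CPM, a ratio of 0.932 (0.882 to 0.985). Klc4 had 366 and 280 counts, or 20.3 and 24.2 CPM, a ratio of 1.195-fold (1.019 to 1.4). Klc1, Klc2 and Klc4 thus all lay far from the 2-fold limit. Klc3, a light chain known from sperm tails, passed that limit on few counts, with 13 and 28, a ratio of 3.36-fold (1.69 to 7.07). Its exons overlap 585 bases of Ercc2 on the opposite strand. The kit marks strand, but the sources used here do not say whether counting used it, and without strand reads of the overlap cannot be told apart.

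Levels of different genes were compared per length, as TPM. TPM lacks the TMM scaling between libraries, so a gene nearly level in CPM, such as Klc1, can be lower in TPM. The 3 heavy chains summed to 1758 TPM in homogenate and 5799 TPM in the synaptosome fraction, and the 4 light chains to 899 TPM and 644 TPM. The ratio of heavy to light chain TPM was therefore 1.95 in homogenate and 9.005 in the synaptosome fraction. Without Kif5a it was 0.471 and 1.55. Such ratios within a library do not depend on the scaling between libraries, and both were larger in the synaptosome fraction. Without Kif5a, the heavy chains were below the light chains in homogenate and above them in the synaptosome fraction. Kif5a made up 75.9% of heavy chain TPM in homogenate and 82.8% in the synaptosome fraction. The makeup of the light chains moved less, with Klc1 at 77.0% and 78.3% of their TPM.

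**Figure D2:**
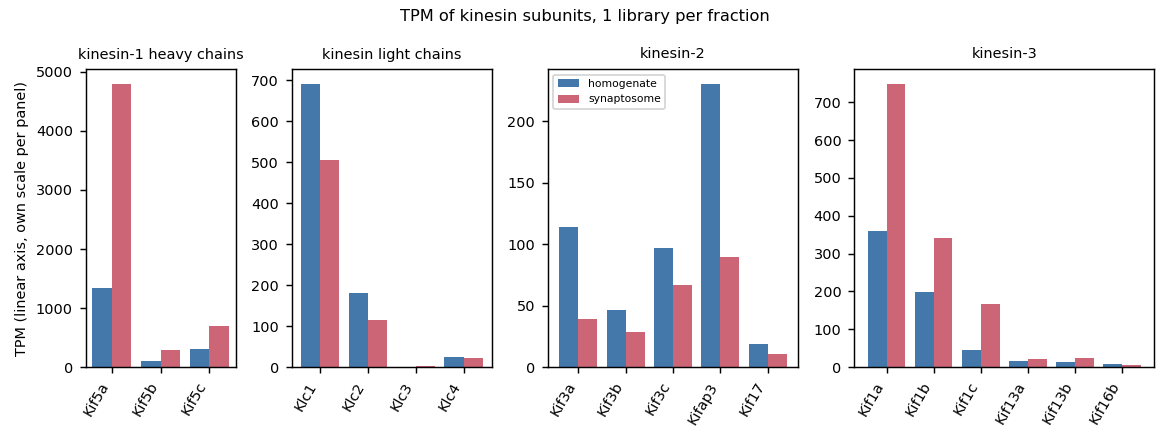
TPM of the genes of kinesin-1 heavy chains, light chains, kinesin-2 and kinesin-3 in homogenate (blue) and the synaptosome fraction (red), 1 library each, on linear axes that start at 0 and differ between panels. Heavy chain bars are taller in the synaptosome fraction, for Kif5a 4803 against 1335 TPM, while Klc1, Klc2 and all 5 kinesin-2 genes have shorter bars there. TPM lacks the TMM scaling between libraries that the CPM values have.

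Kinesin-2 is the motor of ciliary transport and also works in axons and dendrites. Kif3a and Kif3b form a pair of motor subunits that joins the associated protein encoded by Kifap3, and Kif3c can take the place of Kif3b. Of its 5 genes 0 were higher and 0 lower, beside 12.6% and 9.37% of all genes tested, and the median log2 ratio was -0.24. Under library totals Kif3a and Kifap3 were lower and the median was -0.74, beside -0.52 for all genes tested. Kif3a (chromosome 11, 53567379 to 53604244) had 3890 and 1249 counts, or 216 CPM in homogenate and 108 CPM in the synaptosome fraction. Its log2 ratio of -0.996 (1.995-fold lower, 1.87 to 2.13) fell just short of the limit, and passed it with TMM factors taken from genes of at least 1 CPM. Kifap3 had 5628 and 2032 counts, or 312 and 176 CPM, 1.77-fold lower (1.69 to 1.87).

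The other subunits were closer to the typical gene. Kif3b had 1659 and 937 counts, or 91.9 and 81.1 CPM, a log2 ratio of -0.18. Kif3c had 4206 and 2701 counts, or 233 and 234 CPM, a log2 ratio of 0.00, and 2612 bases of its exons overlap 1110002L01Rik on the opposite strand. Kif17, a dendritic motor known for carrying NMDA receptor vesicles, had 425 and 230 counts, or 23.6 and 19.9 CPM, a log2 ratio of -0.24. The subunits of this motor thus did not share 1 ratio, since the intervals of Kif3a and Kifap3 lay below those of Kif3b and Kif3c. In TPM, Kif3b and Kif3c together were 1.27 times Kif3a in homogenate and 2.43 times in the synaptosome fraction. Across subfamilies the gap was wide: Kif5a TPM was 11.7 times that of Kif3a in homogenate and 122 times in the synaptosome fraction.

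Kinesin-3 motors carry vesicles as single-chain or paired motors without light chains. Of the 6 genes measured 5 (83.3%) were higher and 0 were lower, beside 12.6% and 9.37% of all genes tested. The median log2 ratio was 1.39. Under library totals 2 were higher, beside 4.44% of all genes tested. The median was then 0.90, beside -0.52 for all genes tested. Kif1a, the main carrier of synaptic vesicle precursors and dense-core vesicles (chromosome 1, 93015456 to 93101865), had 18771 and 36380 counts, or 1040 CPM in homogenate and 3148 CPM in the synaptosome fraction. Its ratio was 3.03-fold (2.97 to 3.08). Kif1b, whose long form carries synaptic vesicle precursors and whose short form carries mitochondria (chromosome 4, 149176321 to 149307698), had 12616 and 20239 counts, or 699 and 1751 CPM, a ratio of 2.50-fold (2.45 to 2.56).

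Kif1c had the highest ratio of the 40 members, narrowly above that of Kif5a. This broadly expressed motor (chromosome 11, 70700548 to 70731970) had 1881 and 6627 counts, or 104 CPM in homogenate and 573 CPM in the synaptosome fraction, a ratio of 5.50-fold (5.23 to 5.79). Its interval overlapped that of Kif5a. In TPM, Kif1c was 0.223 times Kif1b in homogenate and 0.489 times in the synaptosome fraction. Kif13b, a motor that binds the scaffold protein Dlg1, had 471 and 829 counts, or 26.1 and 71.7 CPM, a ratio of 2.75-fold (2.45 to 3.08). Kif13a, known for transport of the mannose 6-phosphate receptor, had 673 and 866 counts, or 37.3 and 74.9 CPM, and lay at the limit with 2.01-fold (1.81 to 2.23). Kif16b, a motor of early endosomes, had 263 and 202 counts, or 14.6 and 17.5 CPM, a ratio of 1.199-fold (0.993 to 1.446) that was not distinguishable from no difference at this depth. Kif14 had 12 counts in all and is given no ratio.

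**Figure D3:**
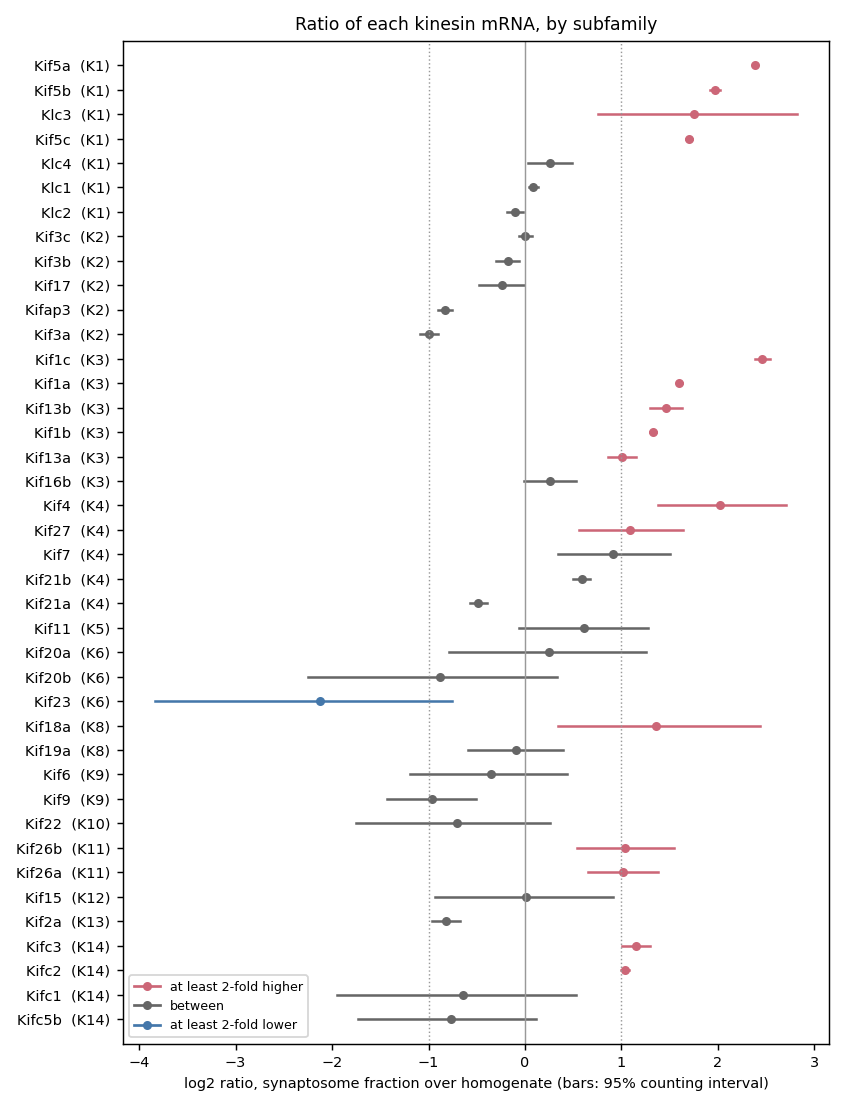
Log2 ratio, synaptosome fraction over homogenate, of each of the 40 members with its 95% counting interval, ordered by subfamily (K1 to K14), with red for at least 2-fold higher, blue for at least 2-fold lower and dotted lines at 2-fold. Heavy chains of kinesin-1 and 5 of 6 kinesin-3 genes lie right of the upper limit, the 5 kinesin-2 genes lie between the limits, and only Kif23 is called lower.

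Kinesin-14 motors walk towards the minus end of microtubules. Kifc2, a neuronal member (chromosome 15, 76660641 to 76668196), was the third most abundant member of the homogenate, at 429 TPM. It had 8373 and 11030 counts, or 464 CPM in homogenate and 954 CPM in the synaptosome fraction, a ratio of 2.06-fold (2.00 to 2.12). Kifc3, known from apical transport in epithelia (chromosome 8, 95099828 to 95142540), had 695 and 989 counts, or 38.5 and 85.6 CPM, a ratio of 2.22-fold (2.01 to 2.45). The spindle motor Kifc1 and its near copy Kifc5b had 31 and 55 counts over both libraries, log2 ratios of -0.65 and -0.77, and intervals that included no difference. Both are uncertain, since 17.0% of the 100-base windows of Kifc1 also occur in Kifc5b.

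Of kinesin-4, the best measured genes were Kif21a and Kif21b, neuronal motors that slow microtubule growth. Kif21a had 3278 and 1500 counts, or 182 CPM in homogenate and 130 CPM in the synaptosome fraction, a log2 ratio of -0.48. Kif21b had 2052 and 1976 counts, or 114 and 171 CPM, a log2 ratio of 0.59. Their intervals lay on opposite sides of no difference under TMM, and neither reached 2-fold. Kif4, a chromosome-bound spindle motor, was 4.07-fold higher (2.60 to 6.54) on 28 and 73 counts. Kif27, a relative of the hedgehog pathway regulator Kif7, was 2.13-fold higher (1.47 to 3.11) on 52 and 71 counts, and Kif7 was at 1.89-fold (1.26 to 2.83) on 48 and 58 counts. Kif2a, a kinesin-13 that takes microtubules apart and limits axon branching, had 1424 and 518 counts, or 78.9 and 44.8 CPM, 1.76-fold lower (1.59 to 1.95).

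Spindle kinesins were near the floor of detection. Of the 12 genes of the mitotic group 9 had at least 20 counts, with a median log2 ratio of 0.01. Of these 9, 22.2% were higher and 11.1% lower, beside 12.6% and 9.37% of all genes tested. All 12 together summed to 14.9 CPM in homogenate and 19.3 CPM in the synaptosome fraction, of which Kif4 had 1.55 and 6.32. Kif4 and Kif18a, which helps align chromosomes, were higher, Kif18a at 2.57-fold (1.27 to 5.39) on 14 and 23 counts. Under library totals Kif18a was not called, and its interval included no difference. Kif23, a motor of the midzone in cytokinesis, was lower, with 34 and 5 counts, 4.35-fold (1.69 to 14.3), and was the 1 member called lower. Kif11, the plus-end motor that pushes spindle poles apart, had 41 and 40 counts, and Kif15, which can share that task, had 28 and 18. Kif20a had 21 and 16 counts, and 1115 of its exon bases overlap Cdc23 on the opposite strand. Kif20b had 23 and 8, and Kif22, which binds chromosome arms, had 33 and 13. The intervals of these 5 genes included no difference. Of 6 measured markers of dividing cells 0 were higher and 1 was lower.

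The cilium group had 9 measured genes, with a median log2 ratio of -0.24. Of these 1 (Kif27, 11.1%) was higher and 0 were lower, beside 12.6% and 9.37% of all genes tested. The group shares Kif3a, Kif3b, Kifap3 and Kif17 with kinesin-2. Outside kinesin-2, Kif9, a motor of motile cilia, had 164 and 54 counts, or 9.09 CPM in homogenate and 4.67 CPM in the synaptosome fraction, 1.94-fold lower (1.42 to 2.70). Kif6 had 42 and 21 counts and Kif19a, which limits cilium length, had 95 and 57, and the intervals of both included no difference. Of the 6 measured markers of ependyma, the ciliated lining of the ventricles, 4 were lower, and their summed level was 27.0 CPM in homogenate and 14.1 CPM in the synaptosome fraction. Their part in the ratio of Kif9 was not tested.

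Kif26a and Kif26b, the kinesin-11 genes, were at the limit. Kif26a, whose protein lacks motor activity, had 113 and 146 counts, 2.02-fold higher (1.57 to 2.60), and Kif26b had 60 and 79, 2.06-fold higher (1.45 to 2.93). The 7 members under 20 counts were Kif12, Kif14, Kif18b, Kif24, Kif2b, Kif2c and Kif4-ps, and Kif2b and Kif4-ps had 0 counts in both libraries.

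Several kinesin genes were deposited as more than 1 transcript, which allowed forms of 1 gene to be compared within the same libraries. Most forms share the greater part of their sequence, though 4750 of the 7066 bases of the short Kif1b form are its own. The counts are estimates that divide reads between forms, and the intervals do not cover the error of that division. Of 10 genes with 2 or more transcripts of at least 20 counts, 4 had ratios at least 2-fold apart with separate intervals (Kif5a, Kif21a, Kif17 and Kifc3), beside 59.6% of the 2643 such genes in all. The share among kinesins was thus below that of all genes. Coding stretches found in 1 of the forms described next are printed with their bases in capitals and the neighbouring transcript bases in lower case. They are from GENCODE M21 transcripts, 5′ to 3′ on the strand of the gene, placed by the exon positions of the files (mm10). They are examples, since the forms of Kif17, Kifc3 and Klc1 also differ in other stretches that are not printed.
Kif1a, chromosome 1, 93026832 to 93026855, minus strand, 24 bases, in NM_008440: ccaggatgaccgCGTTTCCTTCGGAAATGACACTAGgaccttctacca
Kif21a, chromosome 15, 90948324 to 90948338, minus strand, 15 bases, in NM_001109041: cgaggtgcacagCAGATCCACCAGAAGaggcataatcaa
Kif21a, chromosome 15, 90952711 to 90952818, minus strand, 108 bases, in NM_001109040: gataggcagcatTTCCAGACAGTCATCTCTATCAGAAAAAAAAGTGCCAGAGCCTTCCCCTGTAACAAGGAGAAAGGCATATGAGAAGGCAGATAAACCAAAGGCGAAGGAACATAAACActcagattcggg
Kif21a, chromosome 15, 90976471 to 90976509, minus strand, 39 bases, in NM_001109040: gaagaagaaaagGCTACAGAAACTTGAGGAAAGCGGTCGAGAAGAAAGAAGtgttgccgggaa
Kif17, chromosome 4, 138298206 to 138298326, plus strand, 121 bases, in NM_010623: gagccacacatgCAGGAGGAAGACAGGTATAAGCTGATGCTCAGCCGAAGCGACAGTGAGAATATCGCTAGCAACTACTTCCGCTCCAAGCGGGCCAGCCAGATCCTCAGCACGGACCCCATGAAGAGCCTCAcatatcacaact
Kifc3, chromosome 8, 95126526 to 95126707, minus strand, 182 bases, in NM_001145831: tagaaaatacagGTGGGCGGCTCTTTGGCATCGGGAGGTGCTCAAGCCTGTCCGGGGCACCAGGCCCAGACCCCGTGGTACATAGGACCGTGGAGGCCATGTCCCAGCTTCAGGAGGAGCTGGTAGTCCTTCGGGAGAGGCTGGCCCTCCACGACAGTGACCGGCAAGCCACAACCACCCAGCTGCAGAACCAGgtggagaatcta
Klc1, chromosome 12, 111789460 to 111789486, plus strand, 27 bases, in NM_001081959: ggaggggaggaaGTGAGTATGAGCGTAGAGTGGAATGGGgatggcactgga

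For Kif1a, the form with the 24-base exon had 6130 counts in homogenate and 16417 in the synaptosome fraction, a log2 ratio of 2.06 (2.02 to 2.11). The form without it had 12641 and 19962 counts, a log2 ratio of 1.302 (1.270 to 1.334). Both forms were higher, the form with the exon by more, 1.70-fold apart with separate intervals, which is under the 2-fold limit. Its share of Kif1a counts was 32.7% (exact 95% interval 32.0 to 33.3) in homogenate and 45.1% (44.6 to 45.6) in the synaptosome fraction.

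The 4 forms of Kif21a spread further. The form with the 15-base exon had 631 and 77 counts, a log2 ratio of -2.39 (-2.75 to -2.05), and its share of the gene was 19.2% (17.9 to 20.6) in homogenate and 5.13% (4.07 to 6.37) in the synaptosome fraction. The form with the 108-base and 39-base stretches had 1064 and 660 counts, a log2 ratio of -0.05 (-0.19 to 0.10). The other 2 forms lay between, at -0.26 and -0.58. Kif21a as a whole was not called lower, while 1 of its forms was lower by more than 2-fold.

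For Kif5a, 99.9% of homogenate counts belonged to 1 form, NM_001039000, with 52998 and 177779 counts. The other form, NM_008447, lacks the last 2727 bases of the main form and ends in 695 bases of its own. It had 77 and 15 counts, a log2 ratio of -1.72 (-2.62 to -0.91), so the gene's ratio is that of its main form. For Kif17, the full form had 300 and 194 counts, a log2 ratio of 0.01. The form without the 121-base exon and 2 other stretches had 125 and 36, a log2 ratio of -1.15 (-1.73 to -0.61). For Kifc3, the form with the 182-base stretch had 100 and 238 counts, a log2 ratio of 1.89, while NM_001145832 had 251 and 223, a log2 ratio of 0.47. These minor forms rest on far fewer counts than those of Kif1a.

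The light chain Klc1 and the vesicle motor Kif1b did not reach the limit. The Klc1 form with the 27-base stretch had 1567 and 1587 counts, a log2 ratio of 0.66 (0.56 to 0.76). The other measured form had 8624 and 5344, a log2 ratio of -0.05 (-0.10 to 0.00). The share of the first was 15.4% (14.7 to 16.1) in homogenate and 22.9% (21.9 to 23.9) in the synaptosome fraction. The long form of Kif1b held 99.0% of its counts in homogenate and 99.2% in the synaptosome fraction, with 12494 and 20074 counts. The short form, which has the other cargo, had 123 and 165 counts and a log2 ratio of 1.07 (0.72 to 1.42), an interval that overlapped that of the long form.

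**Figure D4:**
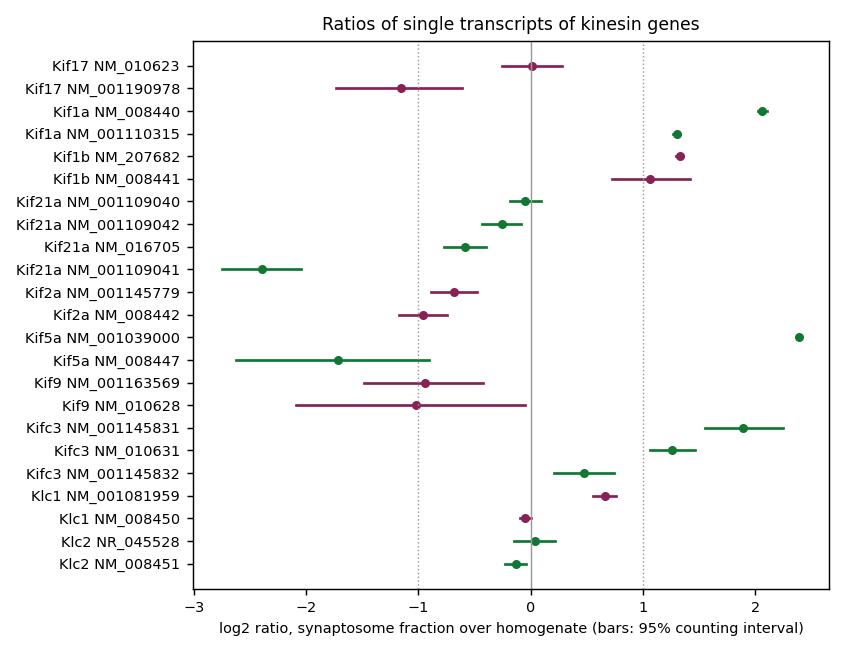
Log2 ratio, synaptosome fraction over homogenate, with 95% counting interval, of each transcript with at least 20 counts of the 10 kinesin genes that have 2 or more such transcripts, with colour alternating between genes and dotted lines at 2-fold. The 2 forms of Kif1a stand apart at 2.06 and 1.302, and 1 form each of Kif21a, Kif5a, Kif17 and Kif9 lies left of the lower limit.

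The members were set beside other transport genes from lists of known components. Cytoplasmic dynein, the motor of the return journey, had 14 measured genes, of which 0 were higher and 3 lower, with a median log2 ratio of -0.53. The 3 were 21.4% of the list, beside 9.37% of all genes tested that were lower and 12.6% that were higher. The lower genes were the intermediate chain Dync1i2 (2.10-fold), the light chain Dynlrb2 (3.44-fold, 43 and 8 counts) and Dynlt1f, which has near-identical gene copies and is uncertain. Dync1i2 and Dynlt1f were named after their values were seen. The dynein genes with the most TPM summed over both libraries, Dynll2 and Dynlrb1, had log2 ratios of 0.49 and -0.24, and the highest ratio, of Dync1li2, was 0.61. No dynein gene thus came near the ratios of the Kif5 genes. Of 17 dynactin subunits and dynein regulators 1 was higher (Nde1, a dynein regulator, 2.91-fold) and 2 were lower (Hook1, 3.97-fold, and Hook2, 2.44-fold, both cargo adaptors), with a median of -0.37. Higher and lower genes were 5.88% and 11.8% of that list, beside 12.6% and 9.37% of all genes tested. Hook2 was also named after its values were seen.

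Kinesin adaptors and cargo links had 32 measured genes, of which 9 were higher and 1 was lower, with a median log2 ratio of 0.33. Higher and lower genes were 28.1% and 3.1% of the list, beside 12.6% and 9.37% of all genes tested. Every measured adaptor averaged 10 CPM or more, and 14.1% of all genes at that level were higher. Several, such as Grip1, did not reach 100 CPM, the level at which 28.4% of all genes were higher. Clstn1 and Clstn3, calsyntenins, a family that binds kinesin light chains, had the most TPM of the list summed over both libraries, and all 3 calsyntenins were higher. Clstn3 had 6856 counts in homogenate and 17964 in the synaptosome fraction, 4.09-fold higher, the highest of the list, and Clstn1 had 12857 and 25697, 3.12-fold higher. Lin7a, part of a scaffold that links Kif17 to its cargo, was the 1 gene called lower, at 2.18-fold. Of 16 unconventional myosins, the motors of actin filaments, 3 (18.75%) were called higher, 1 (6.25%) was called lower, and the median was -0.21. Under library totals these lists moved with the rest, to 0 higher and 7 lower for dynein and 4 higher and 8 lower for the adaptors. Of all genes tested, 4.44% were then higher and 25.9% lower.

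**Figure D5:**
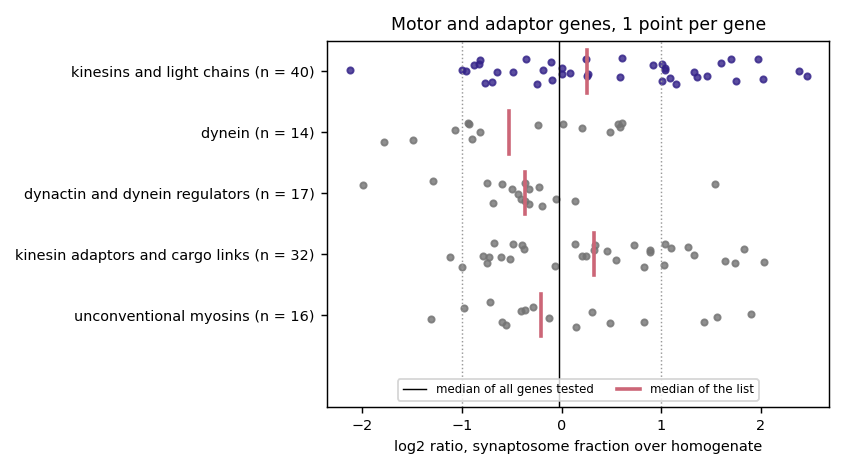
Log2 ratio, synaptosome fraction over homogenate, of each measured gene of the kinesins and light chains (40), dynein (14), dynactin and dynein regulators (17), kinesin adaptors (32) and unconventional myosins (16). Vertical position within a list only separates the points, red bars are list medians (0.26, -0.53, -0.37, 0.33 and -0.21), the black line is the median of all genes tested and dotted lines mark 2-fold.

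Across the 40 members the log2 ratio had a Spearman rho of 0.36 with the length of the main transcript, beside 0.02 over all 14649 genes tested. With homogenate CPM rho was 0.20, beside 0.11 over all genes. With the mean CPM of both libraries, which includes the synaptosome value, it was 0.35, beside 0.27. With GC content rho was 0.19, beside 0.19. With the length of the 3′ UTR rho was 0.22, beside 0.05. These describe the genes of 1 pair of libraries, which share depth and scaling, and genes are not independent replicates.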

How the data were processed

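RNA-seq of 2 mouse brain libraries was used, 1 of total homogenate and 1 of the synaptosome fraction, made with a stranded mRNA kit and read at 100 bases, per the labels' protocols, which leave it unsaid whether these were paired or single reads. The authors deposited expected counts and TPM for each of 30383 transcripts, and a signal value per gene that the authors deposited for both libraries. The submitters' processing notes name the build mm10 and, without roles or settings, edgeR 3.0.6, RSEM 1.2.5, TopHat 1.3.3 and FastQC. Estimated counts as deposited need not be whole, and 61.4% and 67.9% of transcript values were.

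Expected counts were summed per gene symbol, rounded, and scaled with TMM in edgeR 4.0.16 under R 4.3.3 (factor 1.19 in homogenate, 0.843 in synaptosomes). Each ratio has an exact 95% Clopper-Pearson interval given the summed count, which covers counting error only, since reads without molecular identifiers are not independent molecules. Genes with at least 20 summed counts were kept. No test was possible with 1 library per group, so a call needs 2-fold and an interval that excludes no difference. The calculation was tested on simulated data. All members with at least 20 counts could be named, with full values for kinesin-1, kinesin-2, kinesin-3, the extremes and the most abundant of each subfamily, and in other lists the 2 most abundant, the highest and the lowest. The members and lists were chosen with earlier results of these data known. Exon sequence, 3′ UTR lengths and shared windows come from GENCODE M21. Alternatives in scaling, value, filter and fold are in the closing section. Python 3.11.15, numpy 2.4.6, scipy 1.17.1, pandas 2.3.3 and DESeq2 1.42.0 were used.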

Additional observations from a re-analysis of the deposited data

How the results depend on the processing

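No paired analysis was possible because each fraction has 1 library. The 16 members called higher were also called under DESeq2 size factors and with TMM on genes of mean 1 CPM or more, and the count stayed at 16 with the deposited signal, the single most abundant transcript, a filter of 1 CPM, a filter of 1 count, and Kifc1 and Kifc5b summed. Library totals gave 7 higher, 8 lower and a median log2 ratio of -0.23. All genes tested then had a median of -0.52, with 4.44% higher and 25.9% lower. Deposited TPM gave 7 higher, 10 lower and a median of -0.28. Library totals and TPM both remove the TMM shift, and 7 of the 16 higher calls held under each. TMM on genes of mean 1 CPM or more gave 2 lower, since Kif3a crossed the limit. A minimum of 100 counts left 29 members, with 14 higher and a median of 0.92. Of these 29, 0 were lower, since Kif23 was filtered out. A 1.5-fold limit gave 18 higher and 5 lower. Shares of all genes are not given here for TPM, the minimum of 100 counts or the 1.5-fold limit. No result changed sign while called. The comparison of transcripts under at least 100 counts (3 of 8 genes), 1.5-fold (6 of 10) and TPM (4 of 10), and the sum of Kifc1 and Kifc5b, were chosen after seeing the data. Depth limits the members under 100 counts, whose intervals span more than 2-fold.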
